A study of Mus musculus with 21 samples.

Results

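The B cell receptor signalling genes described here were 10 genes chosen by name: the receptor chains Cd79a and Cd79b, the kinases Syk, Lyn and Btk, the adaptor Blnk, the phospholipase Plcg2, the co-receptor subunit Cd81 and the phosphatases Ptpn6 and Ptprc. All 10 were found once among the 53801 genes of the count table, and all 10 passed the filter of at least 10 counts over all libraries, which 20256 genes passed. Sort-purified IgA+ plasma cells (PCs) of the small intestinal lamina propria, the cells that secrete IgA into the gut, were sequenced as bulk RNA from 21 mice, 1 library per mouse. Zeitgeber time (ZT) is the time in hours since the lights were switched on. All mice carried Arntl fl/fl, the floxed gene of the clock factor Bmal1, on a C57BL/6 background under a light:dark cycle with free access to food, and the ages of the mice are not given in the labels. The control mice were Mb1Cre-/- littermates, 6 at ZT0 and 6 at ZT12. The knockout mice were Mb1Cre+/-, 4 at ZT0 and 5 at ZT12, and their Cre recombinase is driven from the Mb1 locus, which is Cd79a itself, so that Arntl is deleted throughout the B cell lineage and not in PCs alone. Groups follow the sample titles, because for 8 of 9 knockout samples the genotype field gives the genotype of the controls.

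As background, the B cell receptor is a membrane immunoglobulin held by a dimer of Igα, the product of Cd79a, and Igβ, the product of Cd79b, whose cytoplasmic tails are phosphorylated by Lyn and then bind Syk. Syk phosphorylates the adaptor Blnk, on which Btk and Plcg2 assemble, and Plcg2 releases the second messengers that raise calcium and activate protein kinase C. Ptpn6 (SHP-1) is recruited by inhibitory receptors and dampens this chain, Ptprc (CD45) sets the activity of Src family kinases such as Lyn, and Cd81 is a tetraspanin of the B cell co-receptor complex. PCs lose much of the B cell programme as they differentiate, but IgA+ PCs are known to keep surface receptor.

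The libraries held between 14471018 and 22785835 counts, and immunoglobulin genes took 51.5% to 63.6% of them. That share stood above 59% in 4 libraries. It was 63.6%, 59.5% and 59.1% in control ZT12 replicates 2, 4 and 5 and 59.4% in knockout ZT0 replicate 3. The main time of day differences, the counts of the pathway list and the genotype value of Syk at ZT12 are also given without these libraries. The correlations are not given without all 4. The targeted gene Arntl lay between 6.83 and 8.36 CPM in control mice and between 4.08 and 6.47 CPM in knockout mice at ZT0. It lay between 4.00 and 5.56 CPM in control and between 3.11 and 4.93 CPM in knockout mice at ZT12, where the groups overlapped. The means were 7.80 CPM in control and 4.87 CPM in knockout mice at ZT0, and 4.54 and 3.89 CPM at ZT12. Arntl was not among the 7 genes with an adjusted p under 0.05 by edgeR between genotypes over both times. These counts are over the whole gene and do not measure the deletion itself, which the study reported as efficient in IgA+ PCs by RT-PCR. All 10 PC markers were detected, the lowest being Tnfrsf17 with a mean of 88.5 CPM. Of the 12 markers of other B cells, 6 had means under 1 CPM, among them Pax5 with 0.543 CPM. CPM is the usual scaling of a count to library size, here with edgeR's TMM factors.

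The promoters of Cd79a, Plcg2 and Ptpn6 are shown because Cd79a was the member called between the genotypes, Ptpn6 the member called between the times of day, and Plcg2 is the member whose promoter holds the canonical E-box CACGTG, the motif bound by Bmal1 with its partner Clock. Each is 300 bases long, from 250 bases before to 50 after the RefSeq start site (build GRCm38.p6), 5′ to 3′ on the strand of the gene, and capitals mark CACGTG, which reads the same on both strands. The Cd79a window is chr7:24897247-24897546 on the plus strand, that of Plcg2 chr8:117498025-117498324 on the plus strand and that of Ptpn6 chr6:124738660-124738959 on the minus strand.
Cd79a: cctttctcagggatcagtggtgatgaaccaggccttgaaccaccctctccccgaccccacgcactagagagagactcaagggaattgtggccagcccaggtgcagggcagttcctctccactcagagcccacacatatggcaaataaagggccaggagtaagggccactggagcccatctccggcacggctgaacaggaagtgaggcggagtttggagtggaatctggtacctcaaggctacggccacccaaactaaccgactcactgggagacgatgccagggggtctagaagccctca
Plcg2: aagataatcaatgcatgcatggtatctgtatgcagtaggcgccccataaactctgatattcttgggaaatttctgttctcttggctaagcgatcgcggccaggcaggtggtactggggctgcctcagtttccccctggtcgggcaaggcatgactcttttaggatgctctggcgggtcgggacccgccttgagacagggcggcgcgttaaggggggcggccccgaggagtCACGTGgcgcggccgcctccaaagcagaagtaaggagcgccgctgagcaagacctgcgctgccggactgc
Ptpn6: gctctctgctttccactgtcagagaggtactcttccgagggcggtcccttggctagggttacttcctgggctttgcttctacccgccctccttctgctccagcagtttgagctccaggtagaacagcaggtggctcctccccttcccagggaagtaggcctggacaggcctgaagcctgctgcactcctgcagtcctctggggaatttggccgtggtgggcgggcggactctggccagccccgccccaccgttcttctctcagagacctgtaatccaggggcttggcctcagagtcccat
RefSeq promoters were matched for 8 of the 10 genes, 10 promoters in all, and not for Cd79b and Lyn. CACGTG was found in 1 of the 10, that of Plcg2, against 7.15% of 32851 promoters of the same length. The D-box motif TTATGTAA was in 0 of the 10 and in 0.938% of all promoters, and AGGTCA, the core bound by the Rev-erb and Ror receptors, was in 1, that of Blnk, and in 16.3% of all promoters. Both strands were searched, and a match describes letters in this window only.

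Levels were compared between genes as CPM per kilobase of the gene length in the table. That length was 18.3 kb for Ptprc and 1.43 kb for Cd79b and need not be that of the transcripts expressed. The order of genes depends on it. Before division by length, the means over all libraries were 124 CPM for Ptprc and 114 CPM for Cd79b. In control mice at ZT0 Cd79a was highest with 346 ± 48.8 CPM per kb (SD, n = 6), followed by its partner Cd79b with 79.3 ± 4.77, Plcg2 with 51.7 ± 2.63 and Syk with 28.3 ± 1.67 CPM per kb. Cd81 followed with 22.2 ± 2.81 and Blnk with 19.7 ± 1.29 CPM per kb. Ptpn6 (15.2 ± 2.57), Btk (11.4 ± 1.80), Lyn (10.6 ± 1.59) and Ptprc (7.52 ± 0.294 CPM per kb) were lowest. In that order the libraries of Syk and Cd81, Cd81 and Blnk, Ptpn6 and Btk, and Btk and Lyn overlapped, and the other neighbours did not. Within a library, Syk was above Cd81 and Ptpn6 above Btk in 6 of 6 mice, and Cd81 was above Blnk in 5 of 6, while Btk was above Lyn in 3 of 6. By mean on this scale, the order Cd79a, Cd79b, Plcg2 led and Ptprc closed the list in all 4 groups. The lowest count of a member was 288, for Ptpn6 in control ZT12 replicate 4, or 19.8 CPM of the whole library (95% Wilson interval 17.6 to 22.2 CPM). These limits cover counting error only.

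**Figure D1:**
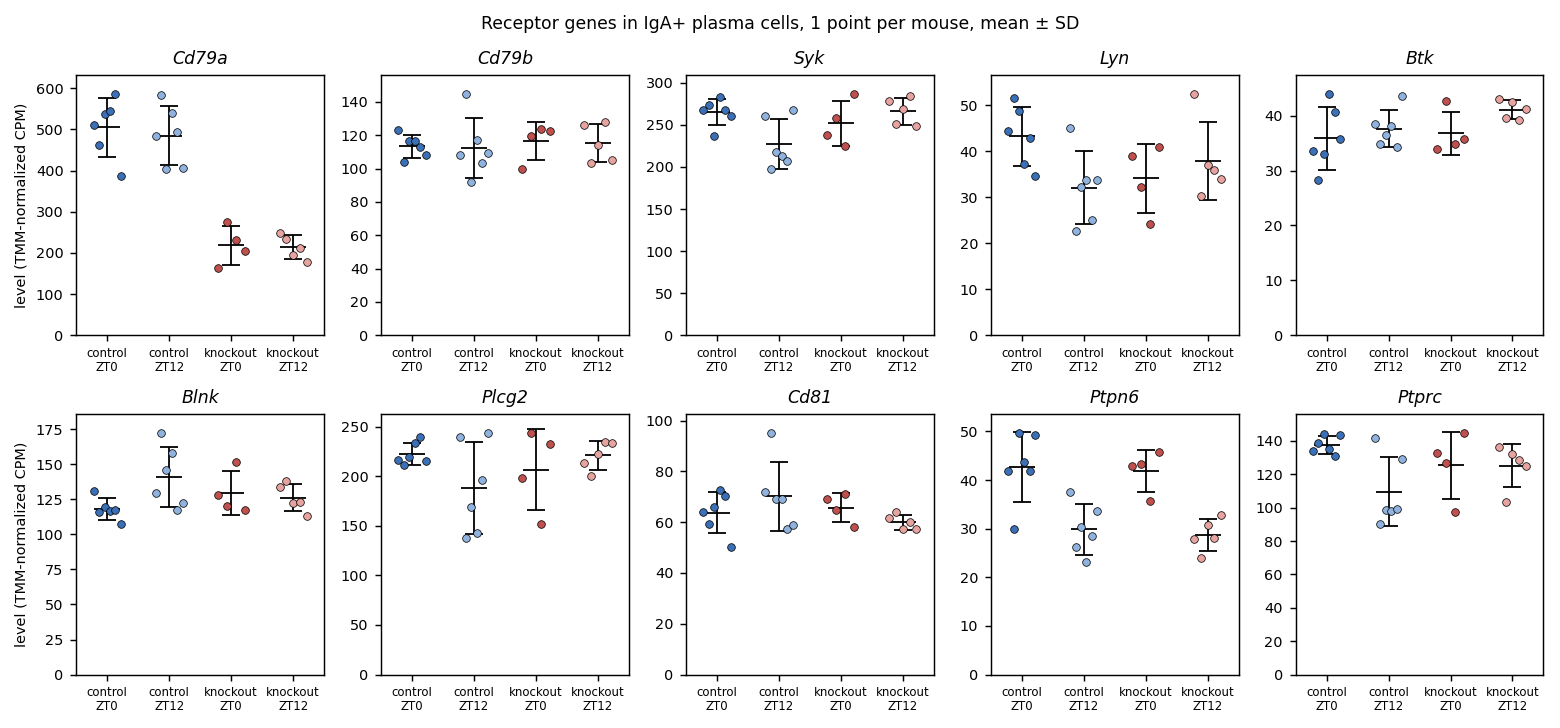
Each panel plots 1 gene, with TMM-normalized CPM on an axis from 0 and 1 point per mouse for the 4 groups, and bars give the mean ± SD. Cd79a lies at 276 CPM or less in knockout mice and at 386 CPM or more in control mice, and Ptpn6 has lower means at ZT12 than at ZT0 in both genotypes.

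Knockout and control mice were compared at each time to find which receptor genes differ where Arntl is deleted and Cre sits in Cd79a. Cd79a, which encodes Igα (ENSMUSG00000003379, chromosome 7 from 24897381 to 24902197, plus strand, GRCm38), was the single member called. At ZT0 it lay between 386 and 586 CPM in control mice, with a median of 524 CPM. In knockout mice at ZT0 it was at 163, 276, 231 and 205 CPM. All knockout libraries lay below all control libraries.

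At ZT12 the Cd79a level lay between 404 and 584 CPM in control mice, with a median of 488 CPM. The knockout libraries at ZT12 were at 249, 234, 195, 213 and 177 CPM. The groups did not overlap at this time either, and over both times, where 0.0197% of all genes had no overlap between genotypes, Cd79a was again the single member. In edgeR's quasi-likelihood test the log2 fold change of Cd79a was -1.21 at ZT0 (standard error 0.15, adjusted p = 9.08e-05) and -1.18 at ZT12 (standard error 0.14, adjusted p = 2.87e-05). Called means a Benjamini-Hochberg adjusted p under 0.05 over all 20256 genes, and at ZT0 0.00987% and at ZT12 0.0148% of all genes were called, against 1 of the 10 members at each time. The two-sided exact permutation test over mice gave p = 0.00476 at ZT0 and p = 0.00216 at ZT12, which are the smallest values these designs allow. Groups that did not overlap were found for 0.977% of genes at ZT0 and 0.380% at ZT12.

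Taken over ZT0 and ZT12, knockout PCs held 0.437 times the Cd79a level of control PCs (95% interval 0.379 to 0.504), which is -1.19 on the log2 scale (standard error 0.10, 95% interval -1.40 to -0.99, edgeR adjusted p = 3.50e-08). That interval holds -1, the log2 difference of a halved level, near its upper limit. The log2 ratio of Cd79a to Cd79b counts, given below, differed by -1.25 at ZT0 and -1.22 at ZT12 and was not tested against -1. The background was 0.0346% of genes called. The deletion of Arntl and the Cre insertion in Cd79a come together in every knockout mouse, so their parts in the level of Cd79a cannot be told apart. In bulk RNA, fewer cells of a type and less RNA per cell cannot be told apart either.

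Cd79b, which encodes the partner chain Igβ, is shown beside Cd79a because both chains are needed for the receptor to reach the surface. Its level was 104 to 123 CPM in control mice at ZT0 (median 115 CPM) and 91.9 to 145 CPM at ZT12 (median 109 CPM). The knockout libraries held 99.6, 120, 124 and 123 CPM at ZT0 against 126, 104, 114, 128 and 105 CPM at ZT12. All 4 groups overlapped. The log2 fold change of Cd79b over both times was 0.036, with a 95% interval of -0.12 to 0.19 (adjusted p = 0.9998 by edgeR).

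The ratio of Cd79a to Cd79b counts within a library does not depend on normalization. It was 3.57 to 5.18 in control mice at ZT0 and 3.72 to 4.76 at ZT12. In knockout mice it was 1.64, 2.31, 1.87 and 1.67 at ZT0 and 1.97, 2.26, 1.72, 1.67 and 1.68 at ZT12. Every knockout library held at most 2.31 Cd79a counts per Cd79b count and every control library at least 3.57. The mean log2 ratio differed by -1.25 at ZT0 and -1.22 at ZT12 (two-sided exact permutation tests, p = 0.00476 and p = 0.00216). Between the times of day it differed by -0.035 in control and -0.0061 in knockout mice (two-sided exact permutation tests, p = 0.710 and p = 0.976). The mean ratio was 4.44 ± 0.544 (SD, n = 6) and 4.32 ± 0.384 (SD, n = 6) in control mice, and 1.87 ± 0.309 (SD, n = 4) and 1.86 ± 0.255 (SD, n = 5) in knockout mice, at ZT0 and ZT12.

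**Figure D2:**
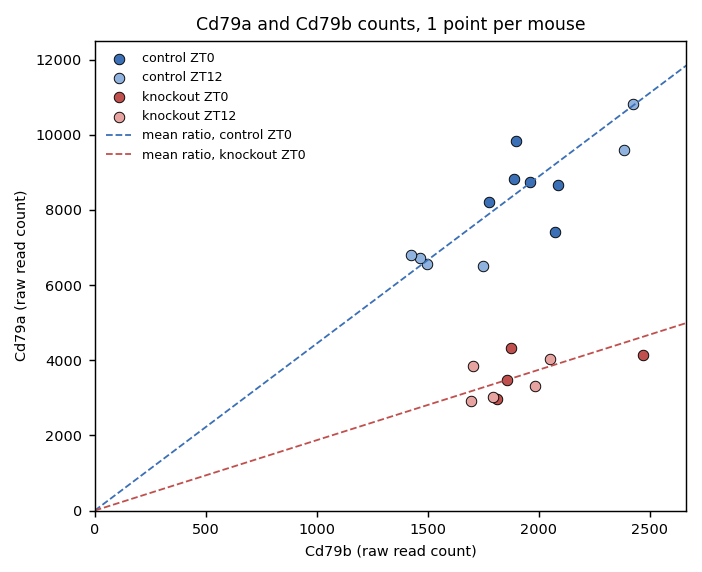
Raw Cd79a counts are plotted against raw Cd79b counts, 1 point per mouse in the colour of its group, and dashed lines give the mean ratios of control mice (4.44) and knockout mice (1.87) at ZT0. The genotypes form separate bands, and their Cd79b counts, 1426 to 2426 in control and 1694 to 2468 in knockout libraries, overlap.

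The other 9 members did not pass the test between genotypes at either time. Over both times their log2 fold changes lay between -0.091 for Cd81 and 0.082 for Btk, and all adjusted p by edgeR were 0.9998. The widest 95% interval was that of Lyn, from -0.31 to 0.21, and the narrowest that of Syk, from -0.067 to 0.22. Of the 9, Syk came nearest at a single time, with a log2 fold change of 0.23 at ZT12 (95% interval 0.032 to 0.43, edgeR adjusted p = 0.562). Without the 4 libraries over 59% immunoglobulin this Syk value was 0.097. At an unadjusted p under 0.05 the background was 4.90% of genes at ZT0, where of the members only Cd79a was below it, and 8.83% at ZT12, where Cd79a and Syk were. Over both times it was 4.19%, with Cd79a as the single member. The median log2 fold change of the 10 members over both times was 0.0069, beside -0.0055 over all genes tested.

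Of the 13 genes listed within 100 kb of Cd79a, 5 passed the count filter, and none was called between genotypes at any time. Arhgef1, which starts 715 bases beyond the end of Cd79a and encodes a guanine nucleotide exchange factor, had a log2 fold change of 0.028 over both times (95% interval -0.13 to 0.19). Rps19, a ribosomal protein gene 7575 bases from Cd79a, was at -0.061 (95% interval -0.35 to 0.23). The values of Rabac1 and Gm9844 were -0.13 and 0.42.

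The times of day were set against each other within each genotype to ask whether receptor genes differ with the time of day and whether this depends on Arntl. Ptpn6, the gene of the inhibitory phosphatase SHP-1 (ENSMUSG00000004266, chromosome 6 from 124720707 to 124738714, minus strand, GRCm38), was the single member called in control mice. Its level was 41.8, 29.8, 49.7, 43.8, 41.9 and 49.3 CPM in control mice at ZT0, and 37.5, 26.2, 30.3, 23.1, 28.5 and 33.7 CPM at ZT12. Control ZT0 replicate 2 lay within the range of ZT12, and the other 5 libraries at ZT0 lay above all libraries at ZT12. The knockout libraries were at 42.9, 43.3, 35.7 and 45.8 CPM at ZT0, against 27.8, 24.0, 30.7, 28.1 and 32.8 CPM at ZT12. In knockout mice the times of day did not overlap, which was so for 2.63% of all genes in these mice. The control and knockout means were 42.7 ± 7.20 (SD, n = 6) and 41.9 ± 4.34 CPM (SD, n = 4) at ZT0. At ZT12 they were 29.9 ± 5.20 (SD, n = 6) and 28.7 ± 3.30 CPM (SD, n = 5).

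Ptpn6 in control mice fell by 0.51 on the log2 scale from ZT0 to ZT12 (standard error 0.12, 95% interval -0.76 to -0.27, adjusted p = 0.0321 by edgeR), where 1.73% of all genes were called. In knockout mice the difference was -0.55 (standard error 0.14, 95% interval -0.83 to -0.26, unadjusted p = 0.000509, adjusted p = 0.289 by edgeR), and 0% of all genes were called in this comparison, in which 8.01% had an unadjusted p under 0.05 and DESeq2 called 47 genes but no member. The difference between the genotypes in this change, the interaction, was -0.035 (95% interval -0.41 to 0.34, adjusted p = 0.972 by edgeR). Averaged over both genotypes, a comparison added after the data were seen, Ptpn6 at ZT12 was 0.692 of its level at ZT0 (95% interval 0.608 to 0.789), or -0.53 on the log2 scale (standard error 0.092, edgeR adjusted p = 0.00526), the 14th smallest p of all genes. The background there was 0.805% of genes called, against 1 of the 10 members.

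The call of Ptpn6 in control mice alone was lost in 9 of the 21 fits that left out 1 library (adjusted p up to 0.0936 by edgeR, without control ZT12 replicate 4), and also with the immunoglobulin share as a covariate (-0.30, adjusted p = 0.547) and without the 4 libraries over 59% immunoglobulin (-0.33, adjusted p = 0.430). Over both genotypes the call of Ptpn6 was kept in all 21 fits and with both of these settings (-0.43, adjusted p = 0.0121, and -0.48, adjusted p = 0.00909, by edgeR).

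The next group is the kinases and the phosphatase at the start of the chain, none of which passed the adjusted test. Ptprc, the gene of CD45 (chromosome 1 from 138062861 to 138175708), was at 131 to 144 CPM in control mice at ZT0 (median 137 CPM). At ZT12 the control libraries were at 141, 90.5, 98.3, 98.3, 99.3 and 129 CPM. Replicates 2 to 5 lay below every library at ZT0, while replicate 1 lay inside the range at ZT0 and replicate 6 just under it. Ptprc in knockout mice was at 132, 127, 97.2 and 145 CPM at ZT0 against 137, 103, 132, 129 and 125 CPM at ZT12, where only knockout ZT0 replicate 3 and knockout ZT12 replicate 2 were near the low control libraries. In control mice the log2 fold change of Ptprc was -0.33 (standard error 0.11, adjusted p = 0.120 by edgeR) and in knockout mice -0.0016 (95% interval -0.27 to 0.26), with an interaction of 0.33 (95% interval -0.02 to 0.68, adjusted p = 0.476 by edgeR). CD45 and B220, both products of Ptprc, were among the surface proteins used for the sort, so its level is not independent of the gate.

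Lyn, the Src family kinase that phosphorylates the tails of Igα and Igβ, was at 34.6 to 51.5 CPM in control mice at ZT0 (median 43.6 CPM) and at 45.05, 22.5, 32.2, 33.6, 25.1 and 33.7 CPM at ZT12. The knockout values of Lyn were 39.0, 32.3, 24.2 and 41.0 CPM at ZT0 against 52.5, 30.2, 36.9, 35.9 and 33.9 CPM at ZT12. Replicate 1 was the highest library of its group in both genotypes at ZT12, and the times overlapped in both. The log2 fold change was -0.43 in control mice (95% interval -0.76 to -0.10, adjusted p = 0.167 by edgeR) and 0.15 in knockout mice (95% interval -0.24 to 0.54), with an interaction of 0.58 (95% interval 0.07 to 1.09, unadjusted p = 0.0279, adjusted p = 0.444 by edgeR). In the fit without control ZT12 replicate 1 both Lyn (-0.55, adjusted p = 0.0391) and Ptprc (-0.42, adjusted p = 0.0230) passed in control mice, and 4.7% of all genes did, against 1.73% with all libraries.

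Syk, the kinase that relays the signal from the phosphorylated tails, was at 237 to 283 CPM in control mice at ZT0 (median 268 CPM) and at 261, 197, 218, 213, 207 and 268 CPM at ZT12. The knockout values of Syk were 238, 258, 225 and 287 CPM at ZT0 against 279, 251, 268, 285 and 249 CPM at ZT12. Replicates 2 to 5 of the control mice at ZT12 again lay below all control libraries at ZT0, and the knockout groups overlapped. The control difference was -0.22 (95% interval -0.41 to -0.03, adjusted p = 0.201 by edgeR), that in knockout mice 0.081 (95% interval -0.14 to 0.30), and the interaction 0.30 (unadjusted p = 0.0411, adjusted p = 0.454 by edgeR). Syk and Lyn were 2 of the 10 members with an unadjusted p under 0.05 in the interaction, where 10.8% of all genes were under it and 0% of all genes were called, while DESeq2 called 4 genes and no member.

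Plcg2, the phospholipase with the E-box in its promoter, was at 211 to 239 CPM in control mice at ZT0 (median 218 CPM) and at 240, 138, 169, 143, 196 and 243 CPM at ZT12. Its knockout values were 198, 243, 152 and 232 CPM at ZT0 against 213, 201, 223, 234 and 234 CPM at ZT12. In control mice at ZT12 replicates 2 to 5 were below all libraries at ZT0 and replicates 1 and 6 above them, and the coefficient of variation was 24.6% there against 5.09% at ZT0. The log2 fold change of Plcg2 was -0.24 in control mice (95% interval -0.51 to 0.02, adjusted p = 0.325 by edgeR) and 0.097 in knockout mice (95% interval -0.21 to 0.41).

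The adaptor Blnk stood opposite. It was at 107 to 131 CPM in control mice at ZT0 (median 117 CPM) and at 129, 172, 146, 158, 118 and 122 CPM at ZT12. Knockout mice had 128, 120, 152 and 117 CPM at ZT0 against 134, 138, 123, 123 and 113 CPM at ZT12. Control ZT12 replicates 2, 3 and 4 and knockout ZT0 replicate 3 were the highest libraries, and the times overlapped in both genotypes. Its log2 fold change was 0.26 in control mice (95% interval 0.05 to 0.46, adjusted p = 0.171 by edgeR) and -0.034 in knockout mice (95% interval -0.27 to 0.20).

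The last members were Btk, the kinase that activates Plcg2, and Cd81. Btk lay between 28.2 and 44.0 CPM over all 21 libraries, and Cd81 between 50.4 and 95.05 CPM, the highest being control ZT12 replicate 2. Over both genotypes ZT12 differed from ZT0 by 0.11 for Btk (95% interval -0.04 to 0.26) and by 0.0037 for Cd81 (95% interval -0.17 to 0.17) on the log2 scale. For Cd79a and Cd79b these differences were -0.046 (95% interval -0.24 to 0.15) and -0.012 (95% interval -0.17 to 0.14). All 4 of these genes had adjusted p of 0.489 or more by edgeR, so no time of day difference was detectable in the receptor chains at this number of mice.

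**Figure D3:**
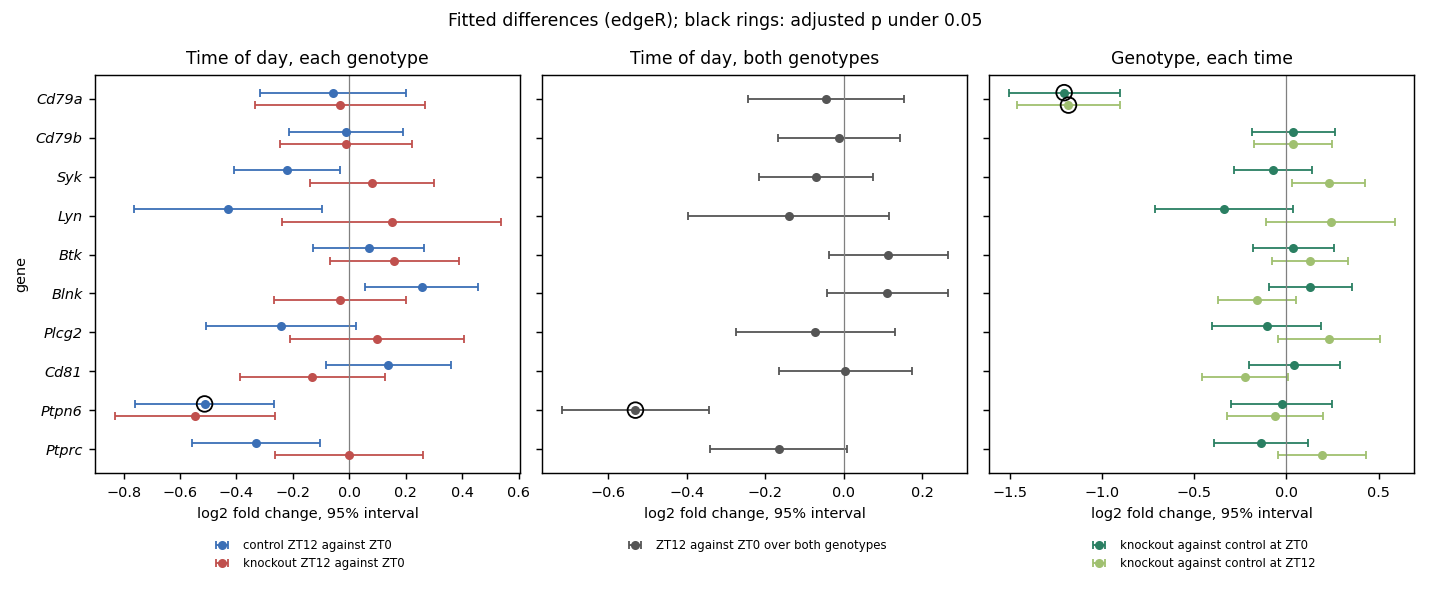
Points give the log2 fold change fitted by edgeR for each gene and bars its 95% interval, for ZT12 against ZT0 in each genotype, over both genotypes, and for knockout against control mice at each time, and black rings mark an adjusted p under 0.05. Ptpn6 lies at -0.51 and -0.55 in the genotypes, and Cd79a at -1.21 and -1.18 is the single member ringed between genotypes, where the interval of Syk at ZT12, 0.032 to 0.43, also lies above 0. In the fit without the 4 libraries over 59% immunoglobulin, which is not plotted, that Syk value was 0.097.

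At an unadjusted p under 0.05, 5 of the 10 members differed with time in control mice, Ptpn6, Ptprc, Lyn, Syk and Blnk, where 18.1% of all genes did, and 1 did in knockout mice, Ptpn6, where 8.01% did. Over both genotypes this was again Ptpn6 alone, where 15.4% of all genes did. In control mice 0 of the 10 members had no overlap between the times of day, against 1.6% of all genes. The median log2 fold change of the members was -0.14 in control mice, beside 0.0063 over all genes tested, and -0.0073 in knockout mice, beside 0.0055. Without the 4 libraries over 59% immunoglobulin, the control differences of Ptprc, Lyn, Syk and Plcg2 were -0.16, -0.22, -0.088 and -0.031 and that of Blnk 0.17. The interactions of Lyn, Syk and Ptprc were then 0.23, 0.11 and 0.050. In control mice 1 of the 10 members then passed an unadjusted p of 0.05, against 9.04% of all genes. In the interaction 0 of the 10 members then did, against 3.43% of all genes. Beside the 10 members the immunoglobulin share had r between -0.70 for Plcg2 and 0.65 for Cd79b across mice, of which 0 passed after adjustment (lowest adjusted permutation p = 0.0631).

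Members were also compared with each other across mice, as deviations of log2 CPM from the mean of the own group, so that genotype and time do not enter. P-values are from permutations within groups (100000 resamples, two-sided) and were adjusted over the 45 pairs. Of these, 9 pairs passed by Pearson's r and 4 by both Pearson's r and Spearman's rank coefficient. Plcg2 and Blnk varied in opposite directions (r = -0.83, permutation p = 0.000580, adjusted 0.00765, rank coefficient = -0.76, permutation p = 0.00216, adjusted 0.0324, and r = -0.72 without the 2 libraries farthest from the median). Ptprc varied with Lyn (r = 0.76, adjusted permutation p = 0.00765, rank coefficient = 0.69, adjusted 0.0348) and with Ptpn6 (r = 0.66, adjusted permutation p = 0.00801, rank coefficient = 0.66, adjusted 0.0324), and r was 0.69 and 0.83 without 2 libraries. Blnk varied with Cd81 (r = 0.75, adjusted permutation p = 0.00765, rank coefficient = 0.72, adjusted 0.0302, and r = 0.63 without 2 libraries). For Lyn and Ptprc the 2 libraries left out were control and knockout ZT12 replicate 1. The 4 libraries with the highest immunoglobulin share stayed in. Across mice that share had r of -0.60 with Lyn, -0.66 with Ptprc and -0.55 with Ptpn6. It had r of -0.70 with Plcg2, 0.59 with Blnk and 0.47 with Cd81, and 0 passed after adjustment. The part of the share in the 4 pairs was not tested.

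The chains of the Igα and Igβ dimer also varied together among mice of a group. For Cd79a and Cd79b r was 0.63 (permutation p = 0.00291, adjusted 0.0164), rank coefficient was 0.58 (permutation p = 0.0140, adjusted 0.0699) and r was 0.58 without 2 libraries, so the rank measure did not pass. All values of a library share its normalization and its composition.

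**Figure D4:**
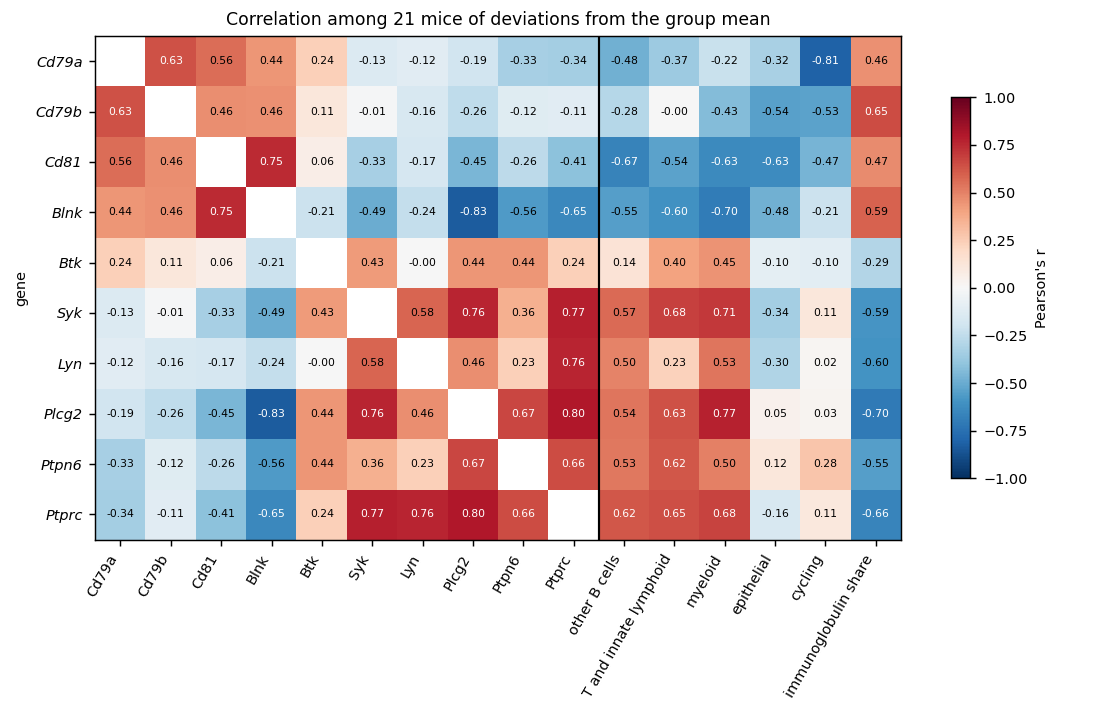
Each cell gives Pearson's r over 21 mice of the deviations of log2 CPM from the group mean, for pairs of genes to the left of the line and for a gene with the level of a marker list or the immunoglobulin share to the right of it. The largest values between genes are -0.83 for Blnk and Plcg2 and 0.80 for Plcg2 and Ptprc, and Cd79a has its lowest r, -0.81, with the cycling markers.

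The levels of other cell types were set beside the members with 5 marker lists, in 50 pairs, of which 10 passed by Pearson's r and 7 by both measures. In these pairs the level of a list was the mean log2 CPM of its genes, so genes under 1 CPM weighed as much as others. The ranges and medians given for the lists are sums of CPM, a different measure. Cd79a was lower in mice with higher cycling markers (r = -0.81, permutation p = 8.00e-05, adjusted 0.00400, rank coefficient = -0.82, permutation p = 0.000160, adjusted 0.00800, and r = -0.77 without 2 libraries). The 8 cycling genes, among them Mki67 with a mean of 49.7 CPM, summed to 42.9 to 109 CPM in control mice at ZT0, 28.6 to 182 CPM at ZT12, 44.0 to 145 CPM in knockout mice at ZT0 and 69.7 to 209 CPM at ZT12. The medians were 60.03 and 64.8 CPM in control mice at ZT0 and ZT12 and 109 CPM in knockout mice at both times, and the ranges of the genotypes overlapped. The part of cycling cells in the Cd79a difference was not tested.

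Syk, Plcg2, Ptpn6 and Ptprc varied with the T cell and innate lymphoid list, with r of 0.68, 0.63, 0.62 and 0.65 (adjusted permutation p from 0.0289 to 0.0378), rank coefficient of 0.61, 0.66, 0.71 and 0.62 (adjusted permutation p from 0.0322 to 0.0487) and r of 0.63, 0.58, 0.60 and 0.59 without 2 libraries. Syk also varied with the myeloid list (r = 0.71, adjusted permutation p = 0.0289, rank coefficient = 0.68, adjusted 0.0487, and r = 0.63 without 2 libraries). The T cell and innate lymphoid list held 12 genes, of which 9 had means under 1 CPM, Cd3d and Cd3e among them, and Cd4 the highest mean, 15.5 CPM. Its sum was 21.6 to 33.2 CPM in control mice at ZT0, 15.6 to 33.3 CPM at ZT12, 26.0 to 37.2 CPM in knockout mice at ZT0 and 26.6 to 39.3 CPM at ZT12.

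The 12 myeloid markers, all detected, summed to 62.1 to 111 CPM in control mice at ZT0 and 25.8 to 137 CPM at ZT12, and to 28.5 to 113 and 68.4 to 129 CPM in knockout mice. Their median was 77.4 CPM at ZT0 and 103 CPM at ZT12 in control mice and 80.2 and 87.8 CPM in knockout mice. The part of myeloid or T cells in the levels of Syk, Plcg2, Ptpn6 and Ptprc was not tested. The 12 other B cell markers summed to 19.0 to 48.4 CPM over all libraries and varied opposite to Cd81 (r = -0.67, adjusted permutation p = 0.0289, rank coefficient = -0.59, adjusted 0.0487, and r = -0.44 without 2 libraries). The 12 epithelial markers summed to 52.8 to 997 CPM, and no member passed by both measures with them. No gene of any of these lists was at 0 in all libraries.

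A list of 70 other genes of the receptor pathway was examined for the rest of the chain, all of which passed the count filter. In control mice 1 of the 70 was called by edgeR, with a lower level at ZT12. At an unadjusted p under 0.05 22 of the 70 differed in control mice, 18 lower and 4 higher at ZT12, or 31.4% against 18.1% of all genes, and the median was -0.11 beside 0.0063 over all genes. Without the 4 libraries over 59% immunoglobulin, 6 of the 70 did, all lower at ZT12, or 8.57% against 9.04% of all genes, and the median was -0.030 beside -0.0065. Of those not called, Itpr2, a calcium release channel that opens downstream of Plcg2, had a log2 fold change of -0.66 (adjusted p = 0.0574 by edgeR) and Dok3, an inhibitory adaptor, of 0.30 (adjusted p = 0.0751 by edgeR).

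Over both genotypes 2 of the 70 were called, both lower at ZT12. Among them was Map2k1, the kinase MEK1 of the Ras pathway (-0.30, standard error 0.060, adjusted p = 0.0157 by edgeR). Its mean was 46.6 CPM in control mice at ZT0 against 39.9 CPM at ZT12, with knockout means of 50.6 and 39.1 CPM. In knockout mice none was called, with 11 of 70 at an unadjusted p under 0.05 by edgeR (15.7%, against 8.01% of all genes), and DESeq2 called 1. In the interaction none was called by edgeR or DESeq2, and 12 had an unadjusted p under 0.05 (17.1%, against 10.8% of all genes). Without the 4 libraries over 59% immunoglobulin, 1 of the 70 was under it in the interaction (1.43%, against 3.43% of all genes). In knockout mice 10 of the 70 then were (14.3%, against 7.57% of all genes).

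Between genotypes none of the 70 was called at ZT0, at ZT12 or over both times by edgeR, and 7, 9 and 3 had an unadjusted p under 0.05. These are 10%, 12.9% and 4.29% of the list, against 4.90%, 8.83% and 4.19% of all genes. Without the 4 libraries over 59% immunoglobulin, 2, 2 and 3 of the 70 had an unadjusted p under 0.05. These are 2.86%, 2.86% and 4.29% of the list, against 3.32%, 3.05% and 3.53% of all genes. The lowest p over both times were those of Rasgrp3, an exchange factor that activates Ras (log2 fold change 0.36, 95% interval 0.18 to 0.53, adjusted p = 0.489), Siglecg, an inhibitory receptor of B cells (0.60, 95% interval 0.27 to 0.92, adjusted p = 0.948), and Pirb, an inhibitory receptor with a mean of 0.663 CPM (-1.30, 95% interval -2.23 to -0.36, adjusted p = 0.9998 by edgeR).

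Across all 21 libraries, the levels most like that of Cd79a among 8167 genes with a mean of at least 5 CPM were those of Nr1d2 (r = 0.92), Kcnn4 (r = 0.86) and Slc1a5 (r = 0.78), and the most opposite were those of Cry1 (r = -0.79), Memo1 (r = -0.74) and Cry2 (r = -0.73). These values are a description over libraries that include both genotypes, with no test. Nr1d2, Cry1 and Cry2 are clock genes, Kcnn4 encodes a calcium-activated potassium channel and Slc1a5 a glutamine transporter. Kcnn4 was lower in knockout mice, with a mean of 283 CPM in control and 210 CPM in knockout libraries (log2 fold change over both times -0.43, adjusted p = 0.0129 by edgeR), as was Slc1a5, with 286 and 219 CPM (-0.39, adjusted p = 0.0152 by edgeR). Both lie on chromosome 7, as Cd79a does.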

How the data were processed

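RNA was measured in sort-purified small intestinal IgA+ PCs of 21 mice, 1 library per mouse. The authors deposited raw read counts per gene, from poly-A libraries sequenced as paired-end reads, with the gene lengths in the same table. The aligner, the counter, its strand setting and the genome build are not given in the sources used here, and coordinates are those of the file, which match GRCm38. Each gene that overlaps a member held at most 1.28% of its counts. Immunoglobulin genes stayed in the library sizes.

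From the counts, genes with fewer than 10 counts in total were removed, and a model with 1 mean per group (4 groups) was fitted with edgeR 4.0.16 (R 4.3.3), using TMM factors and its robust quasi-likelihood F test. Benjamini-Hochberg adjustment ran over the 20256 remaining genes, and an adjusted p under 0.05 was called. DESeq2 1.42.0 was an alternative. Log2 CPM used a prior count of 2. Permutation tests, correlations and figures used Python 3.11.15, numpy 2.4.6, scipy 1.17.1 and matplotlib 3.10.9. The tests were first checked on simulated data. Depth was 14471018 to 22785835 counts per library, and the count of a member was between 288 and 10821.

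The members and lists were chosen with earlier results of these data known. The genes named were the 10 members, Arntl, the genes of the pathway list that were called or had 1 of the 3 smallest p in control mice over time or between genotypes over both times, the genes within 100 kb of Cd79a, and the 3 most and 3 least similar to Cd79a. Some genes that this rule names are not reported here. The comparison over both genotypes, the fits with epithelial markers as a covariate or without libraries over 59% immunoglobulin, the correlations with the immunoglobulin share and the alternatives for the pathway list were chosen after seeing the data. The other alternatives were library size only, DESeq2's size factors, a table without immunoglobulin genes, filterByExpr or no filter on counts, a stricter threshold of 0.01, own groups only, the replicate number as a block, covariates (other B cell markers, immunoglobulin share, Xist), a prior count of 0.5, medians in place of means, and each library left out in turn.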

Additional observations from a re-analysis of the deposited data

How the results depend on the processing

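The genotype difference of Cd79a kept its direction and its call under every alternative and every library left out, with log2 fold changes from -1.33 to -1.09 at ZT0 and from -1.25 to -1.01 at ZT12. The Cd79a to Cd79b ratio was recomputed with medians in place of means and with each library left out, and its log2 difference between genotypes stayed between -1.37 and -1.19. The call of Ptpn6 over both genotypes was also kept throughout, from -0.64 to -0.43. In control mice the count of called members, 1 by edgeR, was 0 with a threshold of 0.01, with own groups only, with the other B cell markers or the immunoglobulin share as a covariate, and with the 4 libraries over 59% immunoglobulin left out, and it ranged from 0 to 3 with 1 library left out, the 3 being without control ZT12 replicate 1, where 944 of all genes were called. The cause was not tested. Among all genes the count in that comparison, 350 by edgeR, was 1052 by DESeq2, 183 with the replicate block, 135 and 101 with the epithelial or other B cell markers, 38 with own groups, 14 at a threshold of 0.01, 12 with the 4 libraries left out, 0 with the immunoglobulin share, and 31 (without control ZT0 replicate 2) to 944 with 1 library left out.

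Of the 70 pathway genes, the count called in control mice over time, 1 by edgeR, was 7 by DESeq2, 5 with library size only, 3 with filterByExpr, 2 with the replicate block, 0 with the immunoglobulin share or the 4 libraries left out, and 1 to 10 with 1 library left out (10 without control ZT12 replicate 1). In knockout mice it was 1 by DESeq2, and between genotypes over both times 1 with the immunoglobulin share. Over time in both genotypes, where it was 2, it was 6 by DESeq2, 1 at a threshold of 0.01, 4 with Xist or with the 4 libraries left out, and 2 to 5 with 1 library left out.

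Deviations from the group mean had a median r of 0.027 between same-numbered mice of different groups, against -0.018 between mice of other numbers. Of 28 same-numbered pairs 11 had r over 0.1, and 6 of 21 libraries were closest to one of their own number. The replicate numbers were not used as pairs, and this check covers no other grouping of the mice. With the replicate block, the members called were 1 in control mice and 1 over both genotypes, and 0 in knockout mice. Own groups could not give the interaction or the values over both times or genotypes. Library size only moved the median of all genes by -0.20 in control mice, 0.19 in the interaction, 0.12 between genotypes at ZT12 and -0.12 over both genotypes, and its values are to be read against this. Counting error alone gave a 95% half-width of 11.6% for the lowest count of a member and 1.88% for the highest.

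The log2 fold changes that changed sign under an alternative had adjusted p of 0.437 or more by edgeR or DESeq2 there. With the epithelial markers as a covariate these were Cd79a 0.026 and Cd79b 0.081 in control mice over time, Cd79a 0.026, Cd79b 0.063, Blnk 0.039 and Ptprc 0.030 in knockout mice over time, Cd79a -0.00039 in the interaction, Cd79a 0.026 and Cd79b 0.072 over time in both genotypes. With DESeq2 these were Cd79b 0.014 in control mice over time, Cd79a -0.0025 in the interaction, Cd79b 0.00014 over time in both genotypes. With DESeq2's size factors these were Cd79b 0.014 in control mice over time, Cd79a -0.0026 in the interaction, Cd79b 0.00011 over time in both genotypes. With filterByExpr these were Cd79b 0.0039 in control mice over time. With library size only these were Btk -0.13 and Cd81 -0.084 in control mice over time, Cd79b 0.20 and Ptpn6 0.12 in the interaction, Cd79b -0.018, Btk -0.011 and Cd81 -0.0083 between genotypes at ZT0, Ptpn6 0.052 between genotypes at ZT12, Blnk 0.028 between genotypes over both times, Blnk -0.0088 and Cd81 -0.12 over time in both genotypes. With a covariate for immunoglobulin share these were Plcg2 0.049 and Cd81 -0.027 in control mice over time, Cd79b 0.0046 in knockout mice over time, Cd79b 0.21 in the interaction, Cd79b -0.053, Plcg2 0.027, Cd81 -0.035 and Ptpn6 0.078 between genotypes at ZT0, Lyn 0.0057, Plcg2 0.068 and Cd81 -0.070 over time in both genotypes. With the replicate block these were Cd79b 0.0087, Blnk 0.0046 and Ptprc 0.011 in knockout mice over time, Cd79b 0.025 in the interaction, Cd81 -0.036 and Ptpn6 0.050 between genotypes at ZT0, Ptpn6 0.016 between genotypes over both times. With the 4 libraries over 59% immunoglobulin left out these were Cd79b 0.014, Blnk 0.049 and Plcg2 -0.028 in knockout mice over time, Cd79b 0.15 and Btk -0.011 in the interaction, Plcg2 0.019 and Ptpn6 0.047 between genotypes at ZT0, Ptprc -0.0019 between genotypes over both times, Cd81 -0.015 over time in both genotypes. With the other B cell markers as a covariate these were Ptprc 0.062 in knockout mice over time, Cd79b 0.013 in the interaction, Plcg2 0.00070 and Cd81 -0.074 over time in both genotypes. With Xist as a covariate these were Cd79b 0.0047 in the interaction. With no count filter these were Cd81 -0.00038 over time in both genotypes. With 1 library left out, the lowest and highest values of those that changed sign were Cd79b -0.097 to 0.042 in control mice over time, Cd79a -0.16 to 0.083, Cd79b -0.087 to 0.023, Lyn -0.0078 to 0.24, Blnk -0.091 to 0.053, Plcg2 -0.024 to 0.17 and Ptprc -0.11 to 0.061 in knockout mice over time, Cd79a -0.10 to 0.14, Cd79b -0.077 to 0.077 and Ptpn6 -0.10 to 0.037 in the interaction, Btk -0.030 to 0.11, Plcg2 -0.19 to 0.014, Cd81 -0.0089 to 0.11 and Ptpn6 -0.10 to 0.043 between genotypes at ZT0, Cd79b -0.024 to 0.12 and Ptpn6 -0.12 to 0.0088 between genotypes at ZT12, Lyn -0.12 to 0.016, Blnk -0.057 to 0.017 and Ptprc -0.0088 to 0.080 between genotypes over both times, Cd79a -0.11 to 0.014, Cd79b -0.058 to 0.0092 and Cd81 -0.052 to 0.030 over time in both genotypes.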

Other observations

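Genes of chromosome 7 around Cd79a were examined after their values were seen. Besides Cd79a, 6 genes were called between knockout and control mice over both times by edgeR, and 4 of these are the clock genes Nr1d2, Nr1d1, Cry1 and Cry2. The other two, Kcnn4 and Slc1a5, lie 0.511 and 8.10 Mb from Cd79a. Within 10 Mb of Cd79a 2 of 348 genes were called (0.575%), against 4 of 19907 elsewhere (0.0201%), and 8.62% against 4.11% had an unadjusted p under 0.05. The median log2 fold change was -0.014 within the window and -0.0052 outside it. Kcnn4 was at 241 to 327 CPM in control mice at ZT0 and 247 to 307 CPM at ZT12, and at 186 to 216 and 193 to 266 CPM in knockout mice, so the genotypes did not overlap at ZT0 and overlapped at ZT12. Slc1a5 was at 229 to 313 and 286 to 340 CPM in control mice and at 177 to 222 and 216 to 240 CPM in knockout mice, and the genotypes did not overlap at either time. The Cre insertion on chromosome 7 and the deletion of Arntl come together in these mice and cannot be told apart.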
